A study of Mus musculus with 10 samples.

Results

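The Wnt genes of murine pancreatic tumors were examined as a group of 44 genes, which are Wnt ligands, Frizzled and Lrp receptors, R-spondins and Lgr receptors, secreted antagonists, intracellular relay genes and feedback targets. They were taken from the 55359 gene rows of the table by symbol (Wnt, Fzd, Rspo, Sfrp or Dkk followed by a number, and 14 single genes), which gave 55 protein-coding candidates, and by a mean normalized count of 1 or more over the 10 tumors, which 44 of them reached. The same minimum left 24560 genes for testing. The tumors grew from KPC K8484 cells, 1 luciferase-expressing line from a mouse pancreatic cancer with a mutant Trp53 allele and Pdx1-Cre, injected into the pancreas of immunocompetent C57BL/6 J mice of both sexes at 10 weeks of age. Both groups carried the same cells. In 5 mice kept on regular water (CTRL) and 5 on water with 30% dextrose for 14 days (D30), the question was how tumor gene expression differs between normoglycemic and hyperglycemic hosts. The sample labels name KPC K8484 as the source although their titles call the tumors PDX.

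Wnt proteins are secreted lipid-modified ligands that bind a Frizzled receptor together with Lrp5 or Lrp6. The bound receptors stop a complex built on Axin and Apc from marking beta-catenin (Ctnnb1) for destruction, and beta-catenin then drives transcription with TCF/LEF factors. Among its targets are genes that restrain the pathway again, such as Axin2, Nkd1, Notum, Rnf43 and Znrf3, while R-spondins and Lgr receptors oppose Rnf43 and Znrf3. In pancreatic cancer, loss of RNF43 makes some tumors depend on secreted Wnt, and FZD5 and WNT7B are known from that setting.

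Reads behind the normalized counts numbered 29192261 to 42122304 per tumor and did not differ between groups by more than their spread (two-sided exact permutation test, p = 0.294). Genes with at least 1 read numbered 24200 to 25912 across CTRL and 20482 to 24716 across D30 tumors (exact permutation test, p = 0.0317). Tumors are named by their table columns, N1, N2, N4, N5 and N6 for CTRL and T1, T2, T4, T5 and T7 for D30. T4 was the only tumor with reads from Y-linked genes (841 reads), and every other tumor of both groups had 0. The paper's methods give as many male as female mice for the orthotopic experiments, a split that these Y-linked reads did not show. The sex of the host of each tumor is not given in the sources used here and was not tested. T5 had the fewest detected genes. Results that rest on T4 or T5 are therefore also given without these tumors. Sums of 10 tumor epithelium markers, the keratins and epithelial junction genes among them, were 227400 to 360965 normalized counts across CTRL and 392651 to 517256 across D30 tumors. Epithelial markers were thus expressed in every tumor, although Cldn7 and Epcam were at 0 in at least 1 of them. Of these markers 8 had a higher and 2 a lower mean in D30 tumors, and the 1 that passed limma's adjusted test, Cldn7, fell against the rise of the sum. Sums of 10 endothelial markers were 14214 to 21564 in CTRL and 8690 to 12788 in D30 tumors, with none at 0 in any tumor. Of these markers 8 had a lower and 2 a higher mean, and Cdh5 fell. Sums of 9 T and NK cell markers were 337 to 710 and 200 to 324, with Cd2, Cd3g, Cd8b1 and Nkg7 at 0 somewhere. Sums of 10 fibroblast markers overlapped, at 75470 to 134705 and 29650 to 101879, with Dpt at 0 somewhere. The sums of 10 other marker lists overlapped too, but single markers moved: 9 of 10 macrophage markers had a lower mean and Cd163 and Csf1r fell, and all 10 islet markers had a lower mean and Gcg, Iapp, Ins1 and Ppy fell. All 10 neutrophil markers had a higher mean (median log2 fold change 1.46, none passing limma's adjusted test), 9 of 10 acinar markers a lower one (median -4.30, none passing), and Muc16 of the mesothelium list fell. In whole-tumor RNA fewer cells of a type and less RNA per cell cannot be told apart, and the part of these shifts in the results below was not tested.

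The starts of the 3 genes that passed the test and had a window are shown so that their base composition can be read. The windows run from 250 bases before to 50 bases after the RefSeq transcript start (GRCm38.p6), are written along the gene's own strand, and carry each CpG in capitals. Wnt7a lies at chr6:91411304-91411603 on the minus strand, Dkk2 at chr3:132085042-132085341 on the plus strand and Fzd1 at chr5:4758167-4758466 on the minus strand.
Wnt7a: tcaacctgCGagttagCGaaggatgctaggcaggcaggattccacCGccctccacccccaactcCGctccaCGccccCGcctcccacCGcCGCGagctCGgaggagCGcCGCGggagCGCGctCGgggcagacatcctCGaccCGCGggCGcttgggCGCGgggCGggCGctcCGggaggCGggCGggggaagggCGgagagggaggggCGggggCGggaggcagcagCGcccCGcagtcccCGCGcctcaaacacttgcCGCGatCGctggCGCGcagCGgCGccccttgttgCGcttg
Dkk2: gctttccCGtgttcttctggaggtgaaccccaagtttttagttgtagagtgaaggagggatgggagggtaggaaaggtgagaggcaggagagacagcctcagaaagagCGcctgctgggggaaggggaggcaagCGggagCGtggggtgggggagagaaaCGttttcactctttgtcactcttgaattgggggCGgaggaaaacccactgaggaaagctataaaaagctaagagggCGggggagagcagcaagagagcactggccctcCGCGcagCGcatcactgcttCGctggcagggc
Fzd1: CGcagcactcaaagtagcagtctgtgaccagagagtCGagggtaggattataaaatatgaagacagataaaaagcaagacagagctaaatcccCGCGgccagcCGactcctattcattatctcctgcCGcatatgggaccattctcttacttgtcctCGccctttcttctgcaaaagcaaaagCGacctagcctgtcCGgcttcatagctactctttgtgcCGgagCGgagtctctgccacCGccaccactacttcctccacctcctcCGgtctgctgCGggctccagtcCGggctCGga
Wnt7a held 42 CpG in this window, Fzd1 16 and Dkk2 11, beside a median of 7 over all 32817 windows of the same length and 27 over the 31 windows of the Wnt genes. Windows were found for 26 of the 44 genes, and Fzd2 and Lgr5 had none. A TCF/LEF motif (the letters CTTTG and then AA, AT, TA or TT, on either strand) was in 16.9% of all windows and in 3 of the 31 windows of the Wnt genes, 9.68%, those of Fzd7, Wnt11 and Wnt5b. None of these letters were in the windows of Wnt7a, Dkk2, Fzd1 or Axin2. The Fzd7 window (chr1:59481897-59482196, plus strand) is shown with its match in capitals, which begins 130 bases before the start.
Fzd7: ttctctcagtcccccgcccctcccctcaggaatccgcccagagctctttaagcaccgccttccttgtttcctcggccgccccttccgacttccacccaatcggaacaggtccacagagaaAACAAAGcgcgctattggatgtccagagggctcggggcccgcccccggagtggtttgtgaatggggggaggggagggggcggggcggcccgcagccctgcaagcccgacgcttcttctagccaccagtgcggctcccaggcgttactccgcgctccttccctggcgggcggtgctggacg

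Among the 44 Wnt genes, 35 had a lower and 9 a higher mean in D30 tumors on the scale of log2(normalized count + 1). All fold changes below are on this scale unless another tool is named. For some genes it gave smaller or larger changes than edgeR, as for Notum (-1.76 against -2.69) and Wnt10b (-1.22 against -0.22), both low, and the abundant Fzd5 (0.09 against 0.44). The median log2 fold change of the Wnt genes (D30 minus CTRL) was -0.38, beside -0.06 over all 24560 genes, and 79.5% of them were lower beside 54.7% of all genes. Fzd6, Fzd10, Rnf43, Sfrp4, Wnt7b and Wnt11, counted here as lower, had a positive change with edgeR. By edgeR the median of the Wnt genes was -0.23, beside 0.03 over all genes. Without T4 the median of the Wnt genes was -0.23. Wnt7a rose and Dkk2, Fzd1 and Fzd2 fell at an adjusted p under 0.05 (limma, Benjamini-Hochberg over all genes), which makes 4 of 44, or 9.09%, beside 2.76% of all genes tested. Of all genes 1.36% fell and 1.4% rose. An unadjusted p under 0.05 was found for 13 Wnt genes, 29.5%, 11 lower and 2 higher, beside 17.3% of all genes. The 2 groups of tumors did not overlap for 5 Wnt genes, 11.4%, beside 6.19% of all genes. These were the 4 genes that passed the test and Lgr5.

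**Figure D1:**
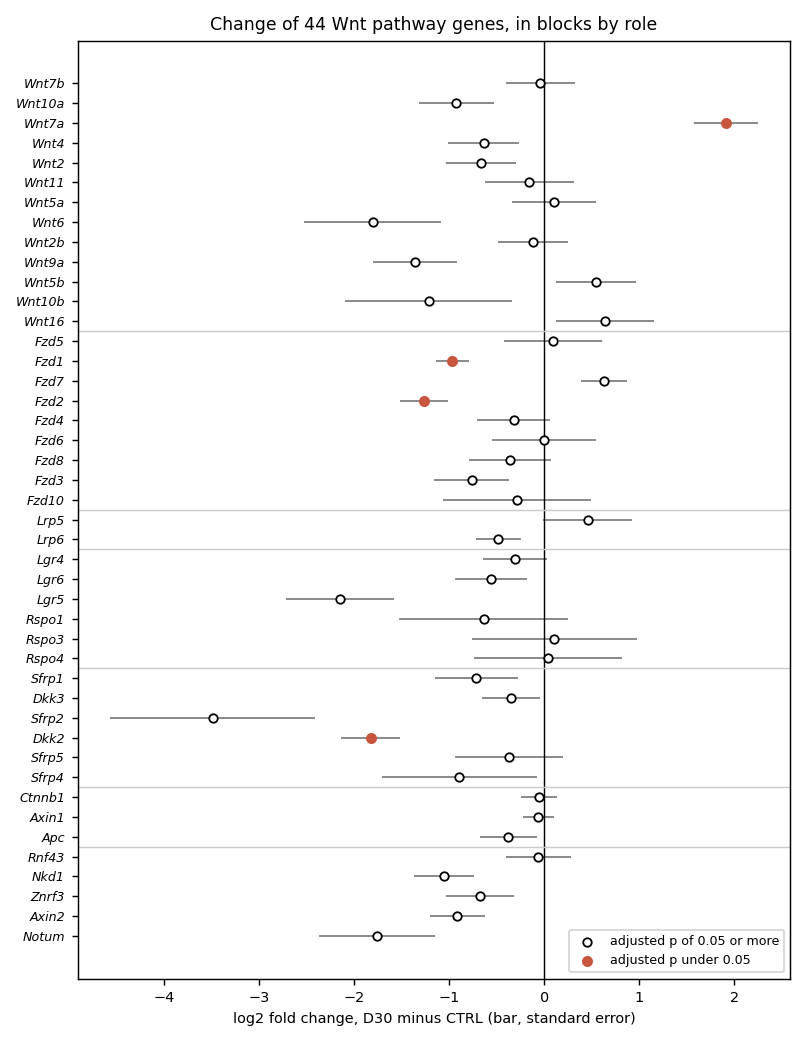
Log2 fold change (D30 minus CTRL, x axis) of the 44 Wnt genes, in blocks by role and ordered within a block by their level per kilobase, with the standard error as a bar. The 4 filled points are Wnt7a at 1.91, Fzd1 at -0.97, Fzd2 at -1.27 and Dkk2 at -1.83, and the open points did not pass the test.

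**Figure D2:**
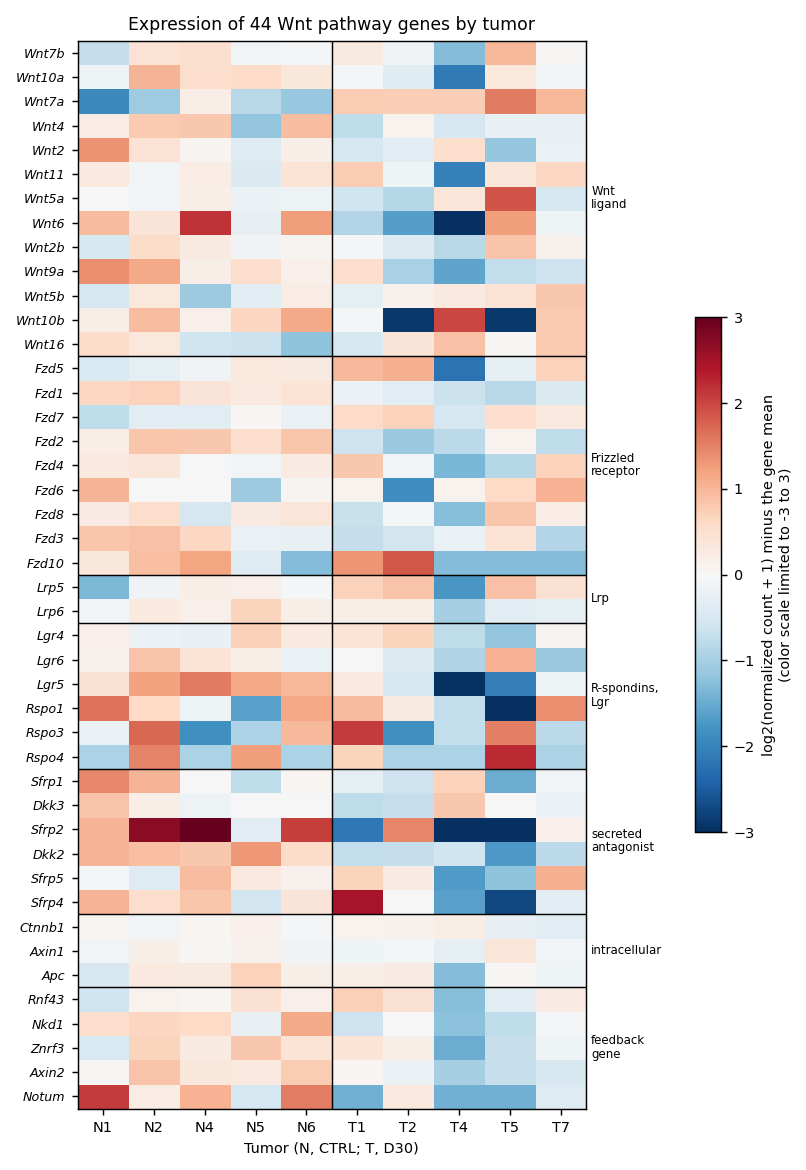
Level of the 44 Wnt genes in each of the 10 tumors, as log2(normalized count + 1) minus the gene's mean over all tumors (color, from blue for low to red for high). T4 is the lowest tumor for Fzd5, Lrp5, Apc, Axin2, Rnf43, Znrf3 and Nkd1, and Wnt7a is the one ligand at which all 5 D30 tumors lie above all 5 CTRL tumors.

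Of the 19 Wnt ligand genes, 13 were measured, 9 with a lower and 4 with a higher mean in D30 tumors. Wnt7a (chromosome 6, 91363981 to 91411363 in GRCm38), a ligand known from epithelia and limb patterning, had 175, 318, 771, 373 and 303 normalized counts in the CTRL tumors and 1127, 1116, 1124, 1976 and 1334 in the D30 tumors. Every D30 tumor lay above every CTRL tumor, with N4 the highest CTRL tumor and T5 the highest of all. The means were 388 ± 226 and 1335 ± 370 normalized counts (SD, n = 5 each), 3.44 times higher in D30, with a log2 fold change of 1.91 (SE 0.335) and an adjusted p of 0.00898 by limma. The adjusted p stayed between 0.00403 and 0.0351 when single tumors were left out and was 0.0179 with edgeR.

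The most abundant ligand per kilobase of exon was Wnt7b, a close relative of Wnt7a, at 1091 ± 336 normalized counts per kilobase in CTRL and 1146 ± 594 in D30 tumors (SD, n = 5). Its counts were 3085, 6823, 7088, 4783 and 4931 in CTRL tumors and 6109, 4661, 2054, 10072 and 5162 in D30 tumors. The D30 tumors held both its lowest and its highest value, in T4 and T5, and the log2 fold change of -0.04 (SE 0.364, adjusted p = 0.970 by limma) was positive with edgeR and DESeq2.

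Wnt10a, a ligand of skin and tooth development, was the next by level per kilobase and had 1072, 2438, 1736, 1778 and 1524 normalized counts in CTRL tumors and 1146, 934, 275, 1492 and 1123 in D30 tumors. The groups overlapped, and its log2 fold change was -0.93 (SE 0.395, adjusted p = 0.248 by limma), or -0.51 without T4. Its neighbor Wnt6, which ends 6.19 kb before it on the same strand of chromosome 1, had a log2 fold change of -1.80 (SE 0.721, adjusted p = 0.217). Wnt6 counts were 53.7, 36.1, 125, 23.0 and 65.9 in CTRL tumors and 14.4, 8.02, 2.31, 66.4 and 24.5 in D30 tumors, where T5 and T7 lay within the CTRL range and T4 was the lowest. Without T4 and T5 the adjusted p of Wnt6 was 0.0462.

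Summed over the 13 ligands, the level per kilobase was 2252 ± 554 in CTRL and 2215 ± 895 in D30 tumors (SD, n = 5), while the shares of single ligands in the sum differed. Wnt7a made up 3.52% to 8.77% of the sum across CTRL and 15.6% to 31.7% across D30 tumors. Wnt10a made up 25.4% to 36.0% and 9.99% to 20.8%, so that the ranges of both genes lay apart. Wnt7b held 47.8% ± 4.15 and 49.6% ± 7.59 (SD, n = 5). Since shares of 1 sum add up, a rise of Wnt7a lowers the share of other ligands, and no test was made on them.

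**Figure D3:**
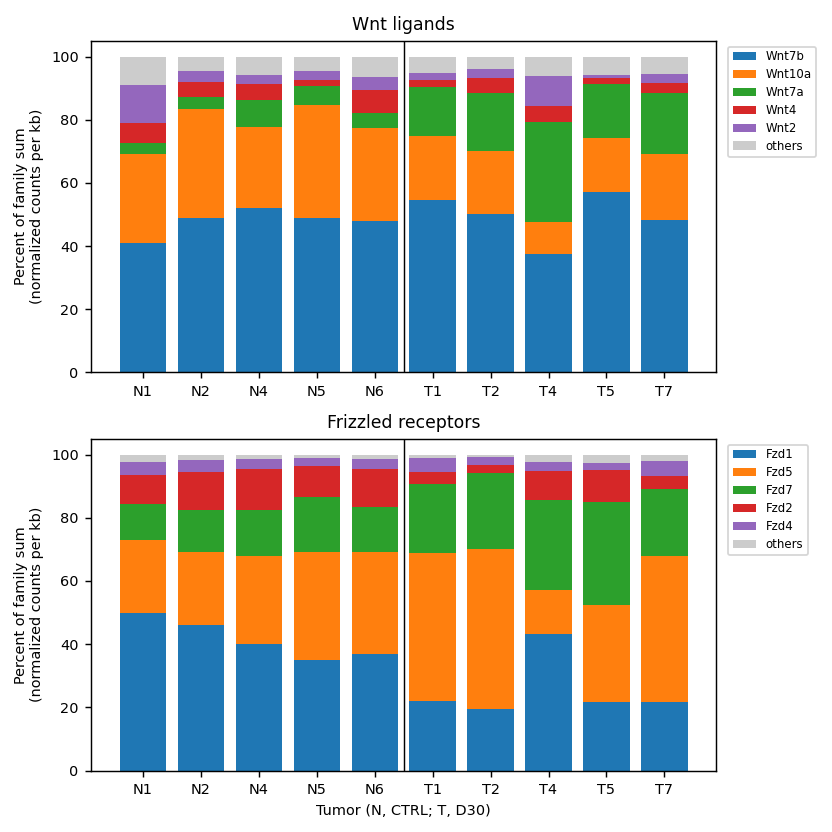
Shares (percent of the family's sum of normalized counts per kilobase of exon, y axis) of the main Wnt ligands and Frizzled receptors in each of the 10 tumors (x axis, CTRL left of the line and D30 right). The Wnt7a share is 15.6% or more in all D30 tumors and 8.77% or less in all CTRL tumors, and the Fzd7 share is 21.1% or more and 17.3% or less.

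Wnt9a had 98.9, 81.7, 42.0, 54.0 and 41.1 normalized counts in CTRL tumors and 53.5, 18.3, 11.6, 21.7 and 23.4 in D30 tumors. Only T1 reached the CTRL range, and the log2 fold change was -1.36 (SE 0.443, adjusted p = 0.130 by limma, 0.0427 by DESeq2). Its neighbor Wnt3a, which starts 16.2 kb away on the other strand, had no read in any tumor. Wnt16 was the lowest measured ligand per kilobase, with 0.856 to 5.26 normalized counts in CTRL and 2.06 to 6.94 in D30 tumors. The other measured ligands Wnt2, Wnt2b, Wnt4, Wnt5a, Wnt5b, Wnt10b and Wnt11 had log2 fold changes from -1.22 (Wnt10b) to 0.54 (Wnt5b) and adjusted p from 0.383 to 0.937 by limma. Among them Wnt5a, the best known ligand outside the beta-catenin branch, had 167 to 218 normalized counts across CTRL and 104 to 245 across the D30 tumors other than T5, which had 709.

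The 6 ligands below the minimum were Wnt1, Wnt3, Wnt3a, Wnt8a, Wnt8b and Wnt9b, with 0 to 9 reads over all 10 tumors. The other candidates below it were Fzd9, Rspo2, Dkk1, Dkk4 and Wif1, with 1 to 6 reads each. Just outside the minimum stood Wnt3 with a mean of 0.825 and Wnt8b with 0.761 normalized counts. Just inside stood Rspo4 with 1.79 and Fzd10 with 2.43.

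Of the 10 Frizzled genes, 9 were measured, and Fzd1 and Fzd2, receptors close in sequence, fell while Fzd7 of the same subfamily lay higher in 4 of the 5 D30 tumors. Fzd1 (chromosome 5, 4753839 to 4758035) had 2854, 3009, 2438, 2282 and 2465 normalized counts in CTRL tumors and 1648, 1457, 1188, 1045 and 1381 in D30 tumors. The highest D30 tumor, T1, lay well below the lowest CTRL tumor, N5. The CTRL mean of 2610 ± 307 was 1.94 times the D30 mean of 1344 ± 235 (SD, n = 5 each), with a log2 fold change of -0.97 (SE 0.177) and an adjusted p of 0.0120 by limma. Without N2 the adjusted p was 0.0511, just over the threshold, and without any other single tumor the call held.

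Fzd2 (chromosome 11, 102604396 to 102608058) had 449, 694, 682, 560 and 702 normalized counts in CTRL tumors and 255, 181, 227, 422 and 231 in D30 tumors. The groups came closest at N1 and T5. The log2 fold change was -1.27 (SE 0.252), from 618 ± 110 to 263 ± 92.9 (SD, n = 5 each), with an adjusted p of 0.0176 by limma. The adjusted p was 0.0695 without N2, 0.0507 without N4 and 0.0661 without N6, and 0.00404 without T5.

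Fzd7 had 703, 943, 957, 1220 and 1029 normalized counts in CTRL tumors and 1767, 1924, 841, 1687 and 1449 in D30 tumors. T4 alone lay within the CTRL range, and the other D30 tumors lay above it. The log2 fold change was 0.63 (SE 0.244, adjusted p = 0.204 by limma) with all tumors and 0.83 without T4, where the adjusted p was 0.0142. In the fit without T4, 6 of the 44 Wnt genes passed the test, beside 6.37% of all genes in that fit, with Fzd7 and Lgr5 added to the 4.

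Fzd5, the most abundant Frizzled receptor per kilobase, had 2175, 2465, 2781, 3691 and 3580 normalized counts in CTRL tumors and 5853, 6181, 643, 2421 and 4829 in D30 tumors. T1, T2 and T7 lay above all CTRL tumors, T5 lay within them and T4 below them. The log2 fold change of 0.09 (SE 0.513, adjusted p = 0.951 by limma) became -0.13 with scaling by library size, 0.66 without T4 (adjusted p = 0.159) and 0.96 without T4 and T5 (adjusted p = 0.00701).

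Summed over the 9 receptors, the level per kilobase was 1504 ± 97.4 in CTRL and 1376 ± 481 in D30 tumors (SD, n = 5). The Fzd7 share of this sum was 11.4% to 17.3% across CTRL and 21.1% to 32.6% across D30 tumors, T4 included. The Fzd1 share was 34.9% to 49.9% across CTRL and 19.6% to 21.9% across the D30 tumors other than T4, where it was 43.1%. Thus Fzd1 led the family in every CTRL tumor and Fzd5 led it in T1, T2 and T7, whereas Fzd7 led it in T5 and Fzd1 in T4. Fzd3, a receptor of planar polarity, had a log2 fold change of -0.76 (SE 0.393, adjusted p = 0.345 by limma), with 64.2, 66.5, 55.7, 31.0 and 30.8 normalized counts in CTRL tumors and 21.6, 24.1, 31.2, 48.1 and 19.2 in D30 tumors. Fzd10 was the lowest receptor per kilobase, at 0 to 4.57 and 0 to 8.02 normalized counts. Fzd4, Fzd6 and Fzd8 had log2 fold changes from -0.36 to -0.0028 and adjusted p of 0.719 or more.

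**Figure D4:**
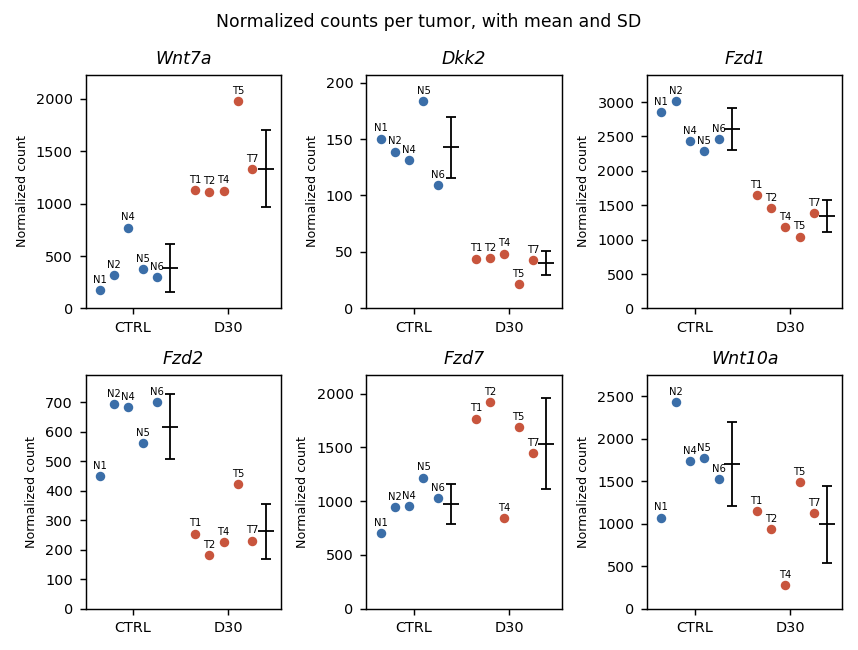
Normalized counts (y axis, from 0) of 3 ligand or antagonist genes and 3 Frizzled receptors in each tumor, with the mean and SD of 5 tumors beside each group. The groups lie apart for Wnt7a, Dkk2, Fzd1 and Fzd2, T4 is the one D30 tumor within the CTRL range for Fzd7, and the groups overlap for Wnt10a.

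The co-receptors Lrp5 and Lrp6, which carry the signal next to Frizzled, did not pass the test. Lrp5 had 3195, 7563, 9282, 9013 and 7739 normalized counts in CTRL tumors and 13035, 14638, 2427, 14874 and 11080 in D30 tumors. All D30 tumors but T4 lay above all CTRL tumors, and T4 lay below them. The log2 fold change was 0.46 (SE 0.470, adjusted p = 0.669 by limma), or 0.95 without T4 (adjusted p = 0.0561). Lrp6 had 5231, 6726, 6072, 8703 and 6241 in CTRL tumors and 6217, 6234, 2763, 4400 and 4569 in D30 tumors, with a log2 fold change of -0.49 (SE 0.238, adjusted p = 0.316). Per kilobase, Lrp5 made up 59.7% ± 8.26 of their sum in CTRL and 73.3% ± 10.5 in D30 tumors (SD, n = 5).

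All 6 measured secreted antagonists had a lower mean in D30 tumors on the log2 scale, beside 54.7% of all genes. The sign of Sfrp4 turned with edgeR and DESeq2 and that of Sfrp5 without T4. Dkk2 (chromosome 3, 132085292 to 132180304), a Dickkopf protein that binds Lrp5 and Lrp6, had 150, 139, 132, 183 and 110 normalized counts in CTRL tumors and 44.2, 44.7, 48.6, 21.7 and 42.6 in D30 tumors. The lowest CTRL tumor had more than any D30 tumor by a wide gap, and T5 was the lowest. The CTRL mean of 143 ± 27.1 was 3.54 times the D30 mean of 40.4 ± 10.6 (SD, n = 5 each), with a log2 fold change of -1.83 (SE 0.311) and an adjusted p of 0.00807 by limma, the smallest p among the Wnt genes. The adjusted p was between 0.00364 and 0.0351 with single tumors left out, so that Dkk2 and Wnt7a were the 2 Wnt genes that passed the test in each of those fits.

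Sfrp2, a Frizzled-like decoy receptor made by stromal cells, had 63.1, 205, 301, 23.9 and 131 normalized counts in CTRL tumors and 6.17, 85.9, 2.31, 0 and 34.1 in D30 tumors. The spread within each group was wide, and N5 lay below T2 and T7. The log2 fold change was -3.49 (SE 1.08, adjusted p = 0.111 by limma), and leaving out T2 took the adjusted p to 0.0458. It was -2.68 without T5 (adjusted p = 0.168), -1.92 without T4 and T5 (adjusted p = 0.169) and -2.48 with edgeR (adjusted p = 0.214). Sfrp1, the most abundant antagonist per kilobase, had 2527, 1896, 944, 552 and 972 in CTRL tumors and 762, 604, 1498, 333 and 885 in D30 tumors, with a log2 fold change of -0.71 (SE 0.439, adjusted p = 0.435). Sfrp4, the lowest per kilobase, had 3.54 to 12.6 normalized counts in CTRL and 0 to 36.0 in D30 tumors. Dkk3 and Sfrp5 had log2 fold changes of -0.35 and -0.37. Of 10 fibroblast markers, 8 had a lower mean in D30 tumors and 0 passed the test, and T4, where Sfrp2 was close to 0, had the lowest sum, but T5, where Sfrp2 was at 0, had a sum of 83608. The fibroblast part in the Sfrp2 values was not tested.

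The R-spondin and Lgr genes set how long receptors stay at the cell surface. Lgr5, a receptor of R-spondins and itself a beta-catenin target that marks stem cells of the gut, had 96.8, 165, 208, 160 and 141 normalized counts in CTRL tumors and 87.4, 49.3, 8.10, 16.0 and 65.0 in D30 tumors. The groups did not overlap, with N1 and T1 nearest to each other and T4 lowest. The means were 154 ± 40.4 and 45.2 ± 33.2 normalized counts (SD, n = 5 each), with a log2 fold change of -2.15 (SE 0.566) and an adjusted p of 0.0634 by limma, over the threshold. It was 0.0382 without T4, 0.0391 without T1 and 0.0217 without T4 and T5, and 0.104 with edgeR and 0.0110 with DESeq2. An annotated gene on the opposite strand, A930009A15Rik, overlaps Lgr5, and whether reads were counted by strand is not given in the sources used here, so reads of the pair may be mixed. The same holds for Axin2, Notum, Sfrp2, Wnt6, Wnt7b, Fzd3, Fzd5, Rnf43, Apc and Ctnnb1. It also holds for Axin1, Fzd6, Rspo1, Rspo3, Rspo4, Wnt5a, Wnt5b and Wnt11. Among the pathway genes described below it holds for Draxin, Tspan12, Afm, Dact1, Lef1, Cd44, Mmp7 and Prickle3. Nkd1 overlaps Gm45496 on its own strand, where strand could not separate the reads. Fzd3 (with Gm27263), Rnf43 (with 1110028F11Rik), Ctnnb1 (with Mir7090), Rspo3 (with Gm20276) and Wnt2b (with Gm43846) also have such an overlap. So do Lef1 (with Gm42449) and Celsr3 (with Gm23156), described below. No annotated gene overlaps Wnt7a, Dkk2, Fzd1, Fzd2 or Fzd7.

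Lgr4 supplied most of the transcript of this group, 87.3% ± 4.78 of its sum per kilobase in CTRL and 88.2% ± 10.1 in D30 tumors (SD, n = 5). Its counts were 3256, 2566, 2483, 4780 and 3571 in CTRL tumors and 3852, 4643, 1709, 1284 and 3097 in D30 tumors, with a log2 fold change of -0.31 (SE 0.337, adjusted p = 0.691 by limma), or 0.24 without T4 and T5. Lgr6, Rspo1 and Rspo3 had log2 fold changes of -0.56, -0.64 and 0.10, of which Rspo1 turned to 0.15 and Rspo3 to -0.26 without T5. The R-spondin genes were near the limit of these data, with no D30 tumor above 28.8 normalized counts for Rspo1, 14.4 for Rspo3 and 8.01 for Rspo4, which was the lowest per kilobase.

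The intracellular genes Ctnnb1, Axin1 and Apc had log2 fold changes between -0.38 and -0.06. Ctnnb1, which encodes beta-catenin, was the most abundant of the 44 genes per kilobase and had 46490, 42703, 46356, 50229 and 43302 normalized counts in CTRL tumors and 48498, 48766, 51845, 37647 and 35771 in D30 tumors. The groups overlapped fully, with a log2 fold change of -0.06 (SE 0.188, adjusted p = 0.914 by limma). Apc, the scaffold of the destruction complex, had 2185, 3750, 3729, 4951 and 3488 in CTRL tumors and 3524, 3648, 1245, 3165 and 2816 in D30 tumors, with a log2 fold change of -0.38 (SE 0.303, adjusted p = 0.566), or -0.10 without T4. Axin1 had 3129 to 3779 in CTRL and 2786 to 4304 in D30 tumors and a log2 fold change of -0.06.

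All 5 feedback genes had a lower mean in D30 tumors on the log2 scale, beside 54.7% of all genes, although that of Rnf43 turned with edgeR and DESeq2. None of the 5 passed limma's test or edgeR's. An unadjusted p under 0.05 by limma was found for 3, beside 17.3% of all genes. DESeq2 called 2, beside 8.07% of all genes. Axin2, the inducible scaffold used most often as a readout of beta-catenin, had 133, 238, 164, 161 and 222 normalized counts in CTRL tumors and 136, 116, 64.8, 80.1 and 92.7 in D30 tumors. Only T1 reached the CTRL range, just above N1. The means were 184 ± 44.3 and 97.8 ± 28.2 normalized counts (SD, n = 5 each), with a log2 fold change of -0.92 (SE 0.289) and an adjusted p of 0.119 by limma (unadjusted p = 0.00734), and the adjusted p was 0.0166 with DESeq2.

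Nkd1, which binds Dishevelled and dampens the signal, had 328, 357, 344, 195 and 502 normalized counts in CTRL tumors and 149, 231, 97.2, 134 and 223 in D30 tumors. N5 was the one CTRL tumor within the D30 range, and the log2 fold change was -1.06 (SE 0.315, adjusted p = 0.0999 by limma, 0.0173 by DESeq2). Notum, an enzyme that removes the lipid from Wnt proteins, was at the limit of detection, with 10, 3, 5, 1 and 8 reads in CTRL tumors and 0, 2, 0, 0 and 1 in D30 tumors. Its 27 and 3 reads gave a depth-adjusted ratio of CTRL to D30 of 7.11, with a 95% exact interval of 2.19 to 36.6 that covers counting error only, and limma gave an adjusted p of 0.157.

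The ubiquitin ligases Znrf3 and Rnf43, which take Frizzled receptors off the cell surface, differed in their means. Znrf3 had 264, 580, 441, 635 and 484 normalized counts in CTRL tumors and 486, 414, 130, 226 and 336 in D30 tumors, with a log2 fold change of -0.68 (SE 0.362, adjusted p = 0.364 by limma), or -0.39 without T4. Rnf43 had 643, 1053, 1019, 1347 and 1087 in CTRL tumors and 1602, 1355, 406, 789 and 1167 in D30 tumors, with a log2 fold change of -0.06 (SE 0.342, adjusted p = 0.95), or 0.25 without T4. The groups overlapped for both genes, and no test was made of the difference between them.

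T4 and T5 stood at the low end for most of these targets. T4 had the lowest level of all 10 tumors for Axin2, Lgr5, Nkd1, Rnf43 and Znrf3, and T5 the next lowest for 4 of those 5, with N1 between them for Rnf43. Over the 38 Wnt genes whose mean normalized count was 10 or more, T4 was the lowest tumor for 19, 50%, beside 28.4% of all 17361 genes of that level. T5 was lowest for 7 of the 38, 18.4% beside 21.7% of all genes of that level. It was highest for 8 of the 38, beside 17.6% of all genes of that level. T4 was also the highest tumor for 27.8% of all genes, and for 2 of the 38.

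**Figure D5:**
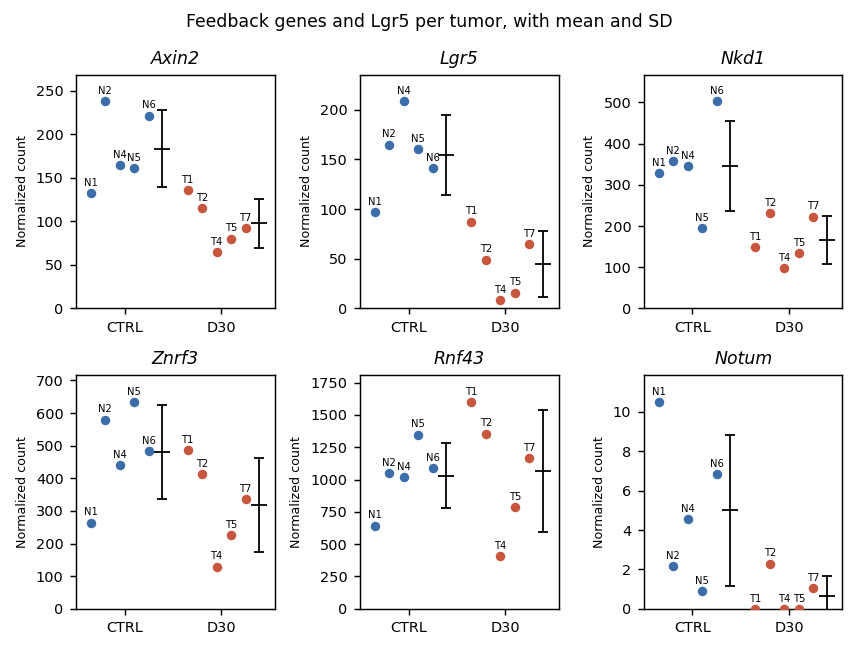
Normalized counts (y axis, from 0) of the 5 feedback genes and Lgr5 in each tumor, with the mean and SD of 5 tumors beside each group. T4 is the lowest tumor for Axin2, Lgr5, Nkd1, Znrf3 and Rnf43, and the groups lie apart for Lgr5.

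The tests on the recovered reads called more or as many of these genes. DESeq2 called 8 of the 44, beside 8.07% of all genes, which were the 4 genes above, with Axin2, Lgr5, Nkd1 and Wnt9a added, each of the added genes lower in D30 tumors. edgeR called the same 4 as limma, beside 2.61% of all genes. Leaving out T4 and T5 together, an alternative chosen after the data were seen, gave 8 Wnt genes, beside 9.79% of all genes, with Dkk2, Fzd1, Fzd2, Lgr5 and Wnt6 lower and Fzd5, Fzd7 and Wnt7a higher. Without N2 only Dkk2 and Wnt7a passed, beside 1.1% of all genes. In these fits more Wnt genes passed where many more of all genes passed. The number of Wnt genes nevertheless stayed at 4 without N5, where 336 of all genes passed, and with scaling by library size, where 866 passed. Axin2, with an adjusted p of 0.122 by limma, and Nkd1, with 0.115, did not pass in the fit without T4 and T5.

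The wider pathway was followed in 6 lists of other genes, 153 of 158 measured, of which 6 fell and 1 rose, 4.58% beside the 2.76% of all genes given above, with a median log2 fold change of -0.14. edgeR called 8 and DESeq2 21 of the 153, beside 2.61% and 8.07% of all genes. Among 22 measured co-receptors and alternative receptors, 17 had a lower mean, 77.3% beside 54.7% of all genes, with a median of -0.71. Of the 22, 2 fell, 9.09% beside 2.76% of all genes that passed. Draxin, a secreted antagonist related to the Dickkopf proteins, had 329, 362, 186, 242 and 210 normalized counts in CTRL tumors and 65.8, 57.3, 27.8, 44.6 and 32.0 in D30 tumors. The groups lay far apart, with a log2 fold change of -2.55 (SE 0.325, adjusted p = 0.00181 by limma), which held without any single tumor. Draxin overlaps Mad2l2 on the opposite strand, so its reads may be mixed with those of that gene. Tspan12, a partner of Fzd4, had 147 to 424 normalized counts in CTRL and 36.6 to 133 in D30 tumors and a log2 fold change of -2.20 (SE 0.423, adjusted p = 0.0150, 0.0599 without N2).

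Among 17 genes of ligand secretion and handling, 1 fell, 5.88% beside 2.76% of all genes that passed. This was Afm, a carrier of secreted Wnt proteins in serum. Afm had 64.9 to 150 normalized counts in CTRL and 22.9 to 49.3 in D30 tumors (log2 fold change -1.86, SE 0.357, adjusted p = 0.0147 by limma). The call of Afm was lost without N2, N5 or N6, with an adjusted p of up to 0.0569. Sdc1, a heparan sulfate proteoglycan, had 14681 to 19562 and 21054 to 36763 normalized counts, which did not overlap, at an adjusted p of 0.0695 by limma and 0.00441 by DESeq2. None of the 29 genes of the cytoplasmic relay passed limma's adjusted test, and 0 were called by edgeR or DESeq2. An unadjusted p under 0.05 was found for 4 of them, 13.8% beside 17.3% of all genes. The smallest adjusted p by limma in this list were 0.223 for Dact1 and 0.241 for Frat2. None of the 21 genes of planar cell polarity passed limma's test either, with 7 at an unadjusted p under 0.05, 33.3% beside 17.3% of all genes. edgeR called 1 and DESeq2 4 of the 21, beside 2.61% and 8.07% of all genes. Celsr3, an atypical cadherin of that list, had 45.5 to 148 normalized counts in CTRL tumors and 350 to 759 across the D30 tumors other than T4, which had 68.2, and its adjusted p was 0.0731 with all tumors and 0.000897 without T4. With all tumors it was 0.0327 by edgeR and 0.000231 by DESeq2. Prickle3 of the same list had a log2 fold change of -1.04 (adjusted p = 0.0912 by limma, 0.0173 by DESeq2).

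Lef1, a transcription factor that partners beta-catenin and is itself a target, fell from 14.5 to 33.7 normalized counts in CTRL tumors to 4.11 to 9.16 in D30 tumors (log2 fold change -1.89, SE 0.429, adjusted p = 0.0335 by limma). It was the 1 of 29 genes of the transcription machinery that passed, 3.45% beside 2.76% of all genes. Its call was lost without N1, N2, N4, N5, N6, T1 or T7, with an adjusted p of up to 0.122 by limma. Sox7 followed with an adjusted p of 0.178 by limma. Of 37 other known beta-catenin targets, Lef1, Cd44 and Mmp7 fell and Ephb3 rose, 10.8% beside 2.76% of all genes. Among the 37, 18 had a higher and 19 a lower mean, and the median log2 fold change was -0.03. Cd44, a hyaluronan receptor, had 15072 to 28269 normalized counts in CTRL and 7942 to 12224 in D30 tumors (log2 fold change -1.08, SE 0.212, adjusted p = 0.0166), and its call was lost without N2 or N5, with an adjusted p of up to 0.0644.

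Mmp7, a secreted protease, had 230, 139, 111, 56.7 and 110 normalized counts in CTRL tumors and 0, 0, 77.5, 5.72 and 4.26 in D30 tumors, where T4 lay within the CTRL range. Its adjusted p was 0.0261 by limma, 0.164 by edgeR and 0.174 by DESeq2, and 0.000555 without T4. With single tumors left out, the limma call of Mmp7 was lost without N1, N2, N4, N5, N6, T1, T2 or T7, with an adjusted p of up to 0.0810. Ephb3, a receptor that positions cells along the gut crypt, had 416, 275, 574, 527 and 451 in CTRL tumors and 1679, 1396, 737, 812 and 1918 in D30 tumors. Every D30 tumor lay above every CTRL tumor (log2 fold change 1.48, SE 0.303, adjusted p = 0.0207), although the adjusted p was 0.0622 with scaling by library size and up to 0.0683 when N2, N6, T2 or T7 was left out. Among these targets Ephb3 thus moved opposite to Lef1, Cd44 and Mmp7.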

How the data were processed

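RNA from 10 tumors, 5 per group, was sequenced from strand-specific libraries. The authors processed the reads and deposited normalized counts, a signal in which the reads of a gene are scaled by 1 size factor per tumor; the submitters' processing notes name FastQC, Trim Galore, STAR 2.7.0e, DESeq2 and GRCm39, and the paper's methods name hg38. Values gave whole reads within 0.01 in 100% of cases, and 0 columns were left unused. Columns N were taken as CTRL by their letter and columns T as D30, the only other group, and single columns could not be tied to single animals. Identifiers were matched without version to GENCODE M21 (GRCm38), which named 94.1%; positions and exon lengths are from it and not from the authors' build.
Genes with a mean of at least 1 were tested with limma 3.58.1 (R 4.3.3) with a mean-variance trend on log2(normalized count + 1), group as the only term, with Benjamini-Hochberg adjustment and a threshold of 0.05. Alternatives were other filters, pseudocounts and scalings, edgeR 4.0.16, DESeq2 1.42.0, no trend, and leaving out single tumors; the fit was tested on simulated data. Named genes were those that passed the test, the 15 smallest p, 8 preset genes, the extremes of level in each role, genes whose groups did not overlap, and in pathway lists the genes that passed and the 2 smallest p. The genes and lists were chosen with earlier results of these data known. The tumors are described as independent biological replicates. Markers of these other cell types were also summed (pericyte, mesothelium, macrophage, neutrophil, B cell, acinar, islet, adipocyte, muscle and nerve). Part of the genotype of the cell line is not reported here.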

Additional observations from a re-analysis of the deposited data

Results flagged for a closer look

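The normalized counts were taken as 88 groups of 5 values, each a gene in 1 group of tumors. In 9 of them 1 tumor stood far from the other 4, by a gap of more than 0.71 of the whole range. About 1 in 20, or 4.4, would be reached by independent values with a normal distribution. These groups share the same tumors and hold skewed counts, so that rate need not hold and no excess can be read from the 9. Among D30 tumors, T5 was the far tumor in 5 cases, with 21.7 normalized counts of Dkk2 (others 42.6 to 48.6), 1976 of Wnt7a (others 1116 to 1334), 709 of Wnt5a (others 104 to 245), 4304 of Axin1 (others 2786 to 3189) and 8.01 of Rspo4 (others 0 to 2.06). T1 was far above the other D30 tumors with 53.5 normalized counts of Wnt9a (others 11.6 to 23.4) and 36.0 of Sfrp4 (others 0 to 5.73). Among CTRL tumors, N1 was far above the others with 914 of Dkk3 (others 454 to 586) and far below them with 3195 of Lrp5 (others 7563 to 9282). T4 was the far tumor in 0 of these cases, although it was the lowest of all tumors for 19 Wnt genes. The cause was not tested.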

How the results depend on the processing

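No paired analysis was possible because the column numbers of the table do not match the replicate numbers of the labels. The sources used here also describe no pairing of CTRL with D30 mice, so a shared number alone would not make a pair. The paper's methods state that tumor-bearing mice were randomized to their treatments. The number of Wnt genes that passed the test was 4 with all tumors and under all filters, pseudocounts and scalings tried, with edgeR and without a trend, 8 with DESeq2, and 2 to 6 with single tumors left out. It was 2 without N2 (Dkk2 and Wnt7a), where 270 of 24560 genes passed, and 8 without T4 and T5, where 2398 of 24493 passed, beside 678 with all tumors. The fit without the tumor with Y-linked reads is the fit without T4. The median log2 fold change of the Wnt genes stayed negative, from -0.59 with scaling by library size, which moved the median of all genes to -0.27, to -0.22 with DESeq2 and without T4 and T5. Scaling by library size also moved the split of all calls, to 240 higher of 866. The sign of 8 named genes that did not pass the test turned in some settings, and the cause was not tested. With edgeR and DESeq2 the log2 fold change was 0.22 and 0.24 for Fzd10, 0.043 and 0.047 for Rnf43, 0.13 and 0.13 for Sfrp4, and 0.058 and 0.071 for Wnt7b. With scaling by library size it was -0.13 for Fzd5 and -0.039 for Rspo4. Without T4 and T5 it was 0.48 for Fzd10, 0.24 for Lgr4, 0.44 for Rnf43, -0.38 for Rspo4, 0.27 for Sfrp4 and 0.044 for Wnt7b. With single tumors left out it ranged from -0.11 to 0.019 for Ctnnb1, -0.79 to 0.0014 for Fzd10, -0.16 to 0.66 for Fzd5, -0.25 to 0.25 for Rnf43, -0.52 to 0.41 for Rspo4 and -0.30 to 0.28 for Wnt7b. Of the 16 Wnt genes described by range, 8 turned in sign in at least 1 setting (Fzd4, Fzd6, Rspo1, Rspo3, Sfrp5, Wnt2b, Wnt5a and Wnt11), with Rspo1 at 0.55 and Wnt5a at -0.62 without T4 and T5. Genes with few reads, such as Notum and the R-spondins, could show only large differences at this depth.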
